A study of Homo sapiens with 6 samples.

Results

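The well-expressed ZNF genes of HCC827 cells were 237 genes whose symbol is ZNF followed by a number, with at most 1 letter from A to D after it, and whose mean signal over 6 RNA-seq libraries was at least 400. The deposited table held 28395 genes, of which 508 had such a symbol. Of the other ZNF genes, 218 had a lower mean and were tested, 53 were too low to test, and 39 of those 53 were listed at 0 in every library. These members were chosen by their signal in the same libraries that are compared here. HCC827 is a line of human lung adenocarcinoma cells whose EGFR gene has an activating deletion, and erlotinib inhibits the kinase of this receptor. The cells were given the vehicle DMSO or 1 μM erlotinib for 24 h, and 3 libraries were sequenced for each condition. The study's methods give a general statement that experiments were repeated independently, but neither they nor the labels say whether the 3 RNA-seq libraries of a condition came from separate cultures, so p-values measure only the spread between these libraries. All libraries are of 1 cell line, at 1 dose and 1 time.

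Most ZNF genes encode proteins with C2H2 zinc fingers, small folds in which a pair of cysteines and a pair of histidines hold a zinc ion and which, in series, read DNA bases. A large share of them also carries a KRAB domain, which binds the corepressor TRIM28, and TRIM28 in turn brings the histone methyltransferase SETDB1, HP1 proteins and the NuRD deacetylase to DNA. KRAB zinc finger proteins are best known for silencing transposable elements, and many of their genes lie side by side in clusters, above all on chromosome 19. Other ZNF proteins act in splicing, ribosome quality control, the spindle or transcription of widely expressed genes, since the symbol names a fold and not a function.

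The signal is the number of reads on a gene divided by 1 size factor per library. Library depth was 20858083, 24641819 and 21172884 reads in DMSO, and 21944007, 20760204 and 21678395 reads with erlotinib. A signal of 400 therefore stands for roughly as many reads in a library, since the size factors lay between 0.882 and 1.08. Changes are given as log2 fold changes of erlotinib against DMSO with their standard errors (SE), from limma on log2(signal + 1) over 14215 tested genes, those whose signal averaged 10 or more, with Benjamini-Hochberg adjusted p-values and a threshold of 0.05. The library DMSO 2 stood apart from the others by GC content, the share of G and C bases in the transcript. Among members with a GC content of 60% or more, its median deviation from the DMSO mean was -0.20 log2 units, against 0.14 in DMSO 1 and 0.08 in DMSO 3. Among members under 40% it was 0.14, against -0.04 and -0.09. The counts of the main gene lists without this library are given beside the main ones.

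The cells were epithelial by their markers, and the drug response was visible in every library. KRT7, an epithelial keratin, averaged 123686 in DMSO and 79897 with erlotinib, and EPCAM averaged 9852 and 9485. The leukocyte marker PTPRC and the T cell marker CD3E had a mean of at most 4.75 in either group, and the fibroblast genes COL1A2 and DCN one of at most 1.55. Among 3 blood markers CD68, which epithelial lines can also express, held nearly all of the sum, at 2770.2 to 3526 in the 6 libraries. The sum of 3 fibroblast markers, nearly all of it COL1A1, was 69.2, 71.5 and 95.3 in DMSO and 248, 213 and 192 with erlotinib. That of 2 endothelial markers was 22.7, 15.8 and 20.3 in DMSO and 48.0, 34.6 and 30.9 with erlotinib. Of these 2, VWF averaged 3.94 and 27.4 (log2 fold change 2.74, adjusted p = 6.6e-04, limma), while PECAM1 averaged 15.7 and 10.4. The part of such transcripts in the results was not tested. DUSP6, a phosphatase induced by ERK signalling, fell by 4.33 on the log2 scale, and ETV4 and ETV5, ETS factors downstream of the same pathway, had log2 fold changes of -3.67 and -4.38. Those of EGR1 and SPRY4 were -2.06 and -3.95 (adjusted p at most 2.7e-12 for these 5 genes, limma).

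Erlotinib moved the ZNF genes in both directions. Of the 237 members, 68 fell (28.7%), 85 rose (35.9%) and 84 did neither, and the median log2 fold change was 0.04. Over all genes tested, 35.4% fell and 35.3% rose, with a median of 0.02. Over the 8232 genes with a mean of at least 400, 47.4% fell and 30.6% rose, with a median of -0.15. With the deposited scaling the share of members that rose was thus near that of all genes tested, and the share that fell was below both backgrounds. The lower ZNF genes showed 24.3% lower and 37.2% higher. Without DMSO 2, 62 members fell and 94 rose (39.7%, against 35.8% of all genes tested and 31.9% of those at the minimum level). With libraries scaled to their totals, which moved the median of all genes tested from 0.02 to 0.19, 46 members fell (19.4%, against 27.8% and 37.5%) and 122 rose (51.5%, against 43.3% and 39.5%), so the share of rises lay above both backgrounds there.

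Falls and rises of at least 1 log2 unit were counted in 9 and 21 members, where the background was 10.8% and 17.0% of all genes tested and 12.3% and 8.42% of genes with a mean of at least 400, and 9.17% and 11.5% of the lower ZNF genes. The mean over all libraries chose the members, so 22 with a DMSO mean under 400 passed through their erlotinib libraries and 13 passed through their DMSO libraries alone. These had to differ, and 21 of the 22 were higher and 12 of the 13 lower. Of the 202 members with both group means of at least 400, 56 fell and 64 rose, among them 3 falls and 8 rises of at least 1 log2 unit. The 6 libraries did not overlap for 73 lower and 84 higher members, against 36.9% lower and 36.7% higher of all genes tested. The same shares were 48.3% and 31.6% of genes with a mean of at least 400, and 27.1% and 38.1% of the lower ZNF genes. Together the members took 1.08%, 1.16% and 1.09% of the signal in the DMSO libraries and 1.33%, 1.31% and 1.31% in the erlotinib libraries. The summed signal of all genes was lower with erlotinib in every library, at 20250205 to 20551934 against 22661353 to 23661584, and the sum over the members was 247078 to 265287 in DMSO and 266819 to 269996 with erlotinib.

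**Figure D1:**
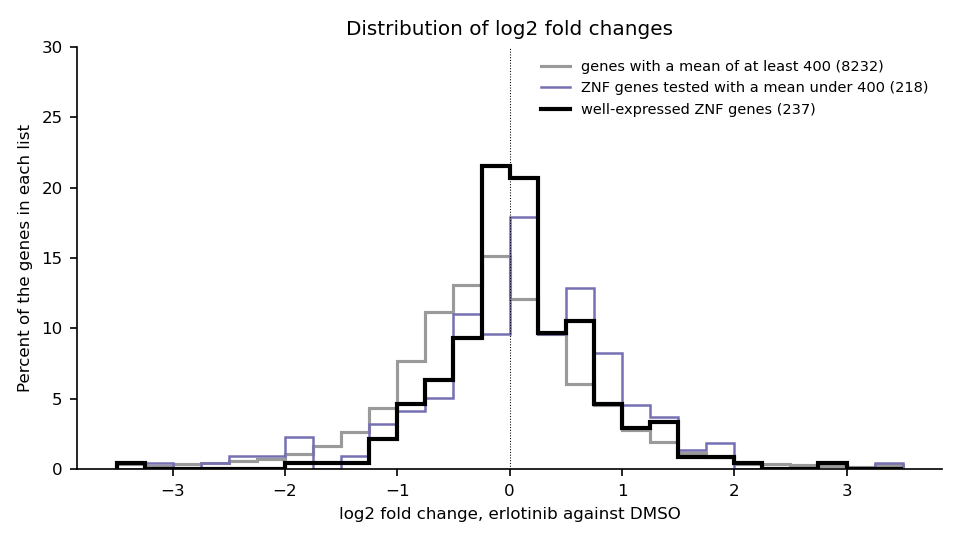
Distribution of the log2 fold changes of erlotinib against DMSO (horizontal axis, bins of 0.25, values beyond the axis placed in the end bins), as the percent of the genes in each of 3 lists (vertical axis). The black line is the 237 well-expressed ZNF genes, with a median of 0.04, the violet line the 218 lower ZNF genes and the grey line the 8232 genes with a mean of at least 400, whose median is -0.15.

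The largest fall among the members was that of ZNF367, which encodes a C2H2 transcription factor and lies on chromosome 9 (96385941 to 96418370 of GRCh38). Its signal was 1786, 1635 and 1508 in DMSO and 156, 194 and 148 with erlotinib. The groups were far apart, and the log2 fold change was -3.31 (SE 0.12, adjusted p = 1.2e-15, limma). The promoter of ZNF367 is printed because it holds a pair of matches to the letters TTTNNCGC, an E2F-type site, close to each other. The run is chr9:96418321-96418620 of GRCh38.p14 on the minus strand (RefSeq), 250 bases before to 50 after the start, with the matches in capitals, both of them on the opposite strand.

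ZNF367: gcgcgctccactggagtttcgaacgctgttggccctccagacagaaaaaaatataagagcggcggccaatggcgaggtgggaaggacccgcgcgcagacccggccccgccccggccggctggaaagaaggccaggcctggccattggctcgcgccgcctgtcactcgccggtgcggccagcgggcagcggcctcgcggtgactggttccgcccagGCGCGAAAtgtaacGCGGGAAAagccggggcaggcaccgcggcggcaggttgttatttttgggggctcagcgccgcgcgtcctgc

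Matches to TTTNNCGC on either strand were found in 27 of the 207 members with a promoter in the table, 10.3% of the tested genes with one and 6.9% of all 27305 promoters. Among the members that fell it was in 13 of 60, among those that rose in 8 of 71, and among the rest in 6 of 76. The ETS core CCGGAAGT was found in 21.3% of the members' promoters, against 8.5% for tested genes and 4.44% for all. It was in 9 of 60 promoters of members that fell, 18 of 71 of those that rose and 17 of 76 of the rest. The forkhead letters GTAAACA were in 1 member's promoter (0.483%, against 2.31% of tested genes) and the AP-1 letters TGACTCA in 5 (2.42%, against 3.26%). These 4 motifs were chosen after results were known, no motif holds the letters of another, and a match is a description of the sequence only.

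ZNF530 (chromosome 19) followed, with a signal of 799, 855 and 751 in DMSO and 210.4, 203 and 214 with erlotinib. The groups did not overlap, and the log2 fold change was -1.93 (SE 0.11, adjusted p = 2.4e-12, limma). The KRAB gene ZNF273 (chromosome 7) had 675, 799.6 and 684 in DMSO and 210.4, 241 and 231 with erlotinib. Its log2 fold change was -1.66 (SE 0.12, adjusted p = 6.6e-11, limma). ZNF718 (chromosome 4), another KRAB gene, fell from 1936 ± 177 to 774 ± 7.16 (SD, n = 3 each), with 3 nearly equal erlotinib libraries. Relative to their mean, ZNF121 had the most scattered erlotinib libraries of the 10 largest falls, at 253, 380.1 and 218, against 745, 608 and 570.5 in DMSO (log2 fold change -1.21). The other members of the 10 were ZNF551 (-1.19), ZNF107 (-1.14), ZNF681 (-1.12), ZNF101 (-1.04) and ZNF593 (-0.94) (adjusted p at most 4.0e-08, limma). ZNF681 overlaps the ribosomal pseudogene RPSAP58, whose mean signal was 8515 against 526 for ZNF681, and the strand that was counted is not stated, so their reads cannot be told apart there. Of the 10, 6 carried the KRAB pattern. An erlotinib mean under 400 was found for 6 of the 10, ZNF367, ZNF530, ZNF273, ZNF121, ZNF681 and ZNF101. These passed the minimum through their DMSO libraries alone and so had to differ, and their values are a description.

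The largest rise was that of ZNF385C, a member of a small family named after ZNF385A (chromosome 17). Its signal was 134, 88.2 and 93.1 in DMSO and 758, 772 and 811 with erlotinib. No library of one group came near the other, and the log2 fold change was 2.91 (SE 0.15, adjusted p = 4.4e-13, limma). ZNF385C overlaps NKIRAS2, a gene with a mean of 1432 in DMSO and 2409 with erlotinib (log2 fold change 0.75), and the part of shared reads was not tested. ZNF862 (chromosome 7), which holds a KRAB pattern and no C2H2 match in its canonical transcript, had 309, 317 and 362 in DMSO and 1444, 1452 and 1543 with erlotinib. Its log2 fold change was 2.17 (SE 0.10, adjusted p = 4.2e-14, limma). ZNF704 (chromosome 8) rose from 202 ± 28.7 to 801 ± 45.7 (SD, n = 3 each).

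ZNF358 (chromosome 19) was the largest rise among members whose DMSO mean was over 400, at 1294, 684 and 1081 in DMSO and 3592, 3225 and 3318 with erlotinib. Its lowest value was that of DMSO 2, its GC content was 69.2%, and its log2 fold change was 1.77 (SE 0.14, adjusted p = 5.4e-10, limma) and 1.23 after each library was corrected for GC content and length. ZNF219 (1.72), ZNF713 (1.51), ZNF436 (1.49), ZNF362 (1.43), ZNF471 (1.41) and ZNF580 (1.40) made up the rest of the 10 (adjusted p at most 1.4e-08, limma). Of the 10, ZNF862, ZNF713 and ZNF471 carried the KRAB pattern. All of the 10 except ZNF358 and ZNF713 had a DMSO mean under 400, so these 8 passed the minimum through their erlotinib libraries, had to differ, and are likewise a description. With the same correction for GC content and length, ZNF219 was at 1.11 and ZNF580 at 0.88. ZNF219 overlaps ARHGEF40, ZNF362 overlaps TRIM62, and ZNF580 lies inside ZNF581, so some of their reads may be shared.

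**Figure D2:**
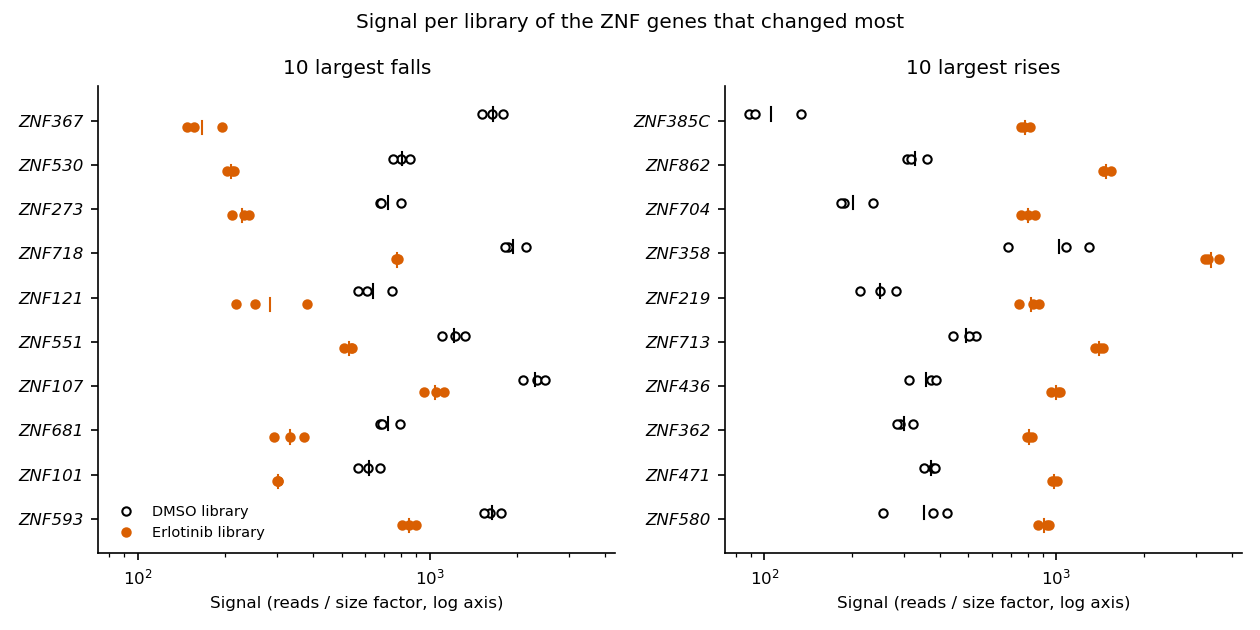
Signal of the 10 members with the largest falls (left) and the 10 with the largest rises (right) in each library, on a logarithmic axis. Open circles are DMSO libraries, filled circles erlotinib libraries and short lines the group means. The 20 genes were taken from called members whose groups do not overlap, so the lack of overlap follows from that choice.

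The 5 members with the highest mean signal differed in their response: ZNF532 rose, ZNF146 and ZNF395 fell, and ZNF664 and ZNF217 had overlapping groups. ZNF664 had the highest mean, with 10479, 11546 and 9815 in DMSO and 10761, 11058 and 10484 with erlotinib, and 2479 per kilobase, the highest of the members. The groups overlapped fully (log2 fold change 0.02, SE 0.07, adjusted p = 0.76, limma), while the GC correction gave 0.15 (adjusted p = 0.0030, limma). ZNF532, found fused to NUTM1 in some NUT carcinomas, rose from 3755 ± 129.8 to 6892 ± 239 (SD, n = 3 each; 0.88, SE 0.06, adjusted p = 1.2e-10, limma). ZNF146, which consists almost wholly of fingers, fell by 0.63 and ZNF395 fell by 0.44 on the log2 scale, with no overlap of libraries in either, and ZNF146 was at -0.36 with the GC correction. ZNF217, a gene amplified in breast and other cancers, had 4917, 4548 and 4283 in DMSO and 4785, 5193 and 5369 with erlotinib. The groups overlapped, the log2 fold change was 0.16 (SE 0.07, adjusted p = 0.048, limma), and the call was lost without DMSO 3 (0.11, adjusted p = 0.20), without the erlotinib library 5 (0.15, adjusted p = 0.14) and without the erlotinib library 6 (0.12, adjusted p = 0.20), while the GC correction gave 0.25. Per kilobase the members ranged from 33.7 to 2479 with a median of 179.9 (quartiles 119.8 and 311), against a median of 379 for genes with a mean of at least 400.

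The smallest changes were those of ZNF805, ZNF148, ZNF518A, ZNF655 and ZNF622, all within 0.02 log2 units of 0 with standard errors of 0.08 to 0.11. ZNF622, a factor that matures the large ribosomal subunit, had 1826, 1676 and 1636 in DMSO and 1684, 1731 and 1648 with erlotinib. With the GC correction, however, ZNF148, ZNF518A and ZNF655 had log2 fold changes of 0.21 to 0.22 and adjusted p-values of at most 0.040 (limma). At the minimum of 400, the members just inside were ZNF18, ZNF486 and ZNF429, with means of 403, 405 and 411 over the 6 libraries. The ZNF genes just outside were ZNF473, ZNF511 and ZNF418, with means of 398, 396 and 393.

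Several members have roles outside the silencing of DNA. The lists are short, and their counts stand beside a background, for genes with means of at least 400, of 47.4% lower and 30.6% higher. ZNF598, a ubiquitin ligase that detects collided ribosomes, fell from 2785, 2353 and 2809.5 to 1886, 1878 and 1824 (log2 fold change -0.50, SE 0.08, adjusted p = 7.4e-06, limma), and with the GC correction its value was -0.94. ZNF593, which belongs to the assembly of the large ribosomal subunit, had 1617, 1539 and 1763 in DMSO and 852, 806 and 899.6 with erlotinib. The groups did not overlap for either gene, as for 48.3% of genes with a mean of at least 400 in that direction. Of the 3 translation genes, 2 fell and ZNF622 passed in neither direction. ZNF207, which loads the checkpoint protein BUB3 at kinetochores, fell from 2615 ± 129 to 1817 ± 111 (SD, n = 3 each; -0.53, adjusted p = 2.3e-06, limma). ZNF367 is the other member of the spindle, replication and cell cycle list, and the last gene listed, ZNF365, had a mean of 3.33 and was not tested.

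Of the 4 members in RNA processing, ZNF326, a part of the DBIRD complex that links splicing to RNA polymerase II, fell from 1464 ± 53.0 to 839.7 ± 20.7 (SD, n = 3 each; -0.80, adjusted p = 1.7e-08, limma). ZNF830, ZNF638 and ZNF346 had log2 fold changes of -0.11, 0.04 and -0.05 and passed in neither direction. Among the chromatin partners, ZNF687, which binds together with ZMYND8, rose by 0.40 (adjusted p = 4.5e-04, limma), with its lowest value, 1211, in DMSO 2. With the GC correction its log2 fold change was 0.10 (adjusted p = 0.13, limma). ZNF687 overlaps PI4KB, whose mean signal was 2936 against 1645 for ZNF687, and the part of shared reads was not tested. ZNF518B was at 1942, 2274 and 2097 in DMSO and 1889, 1803 and 1891 with erlotinib, a log2 fold change of -0.17 with an adjusted p of 0.046 (limma) that was lost under most alternatives. Leaving out DMSO 2, DMSO 3 or any 1 of the erlotinib libraries 4, 5 and 6 gave log2 fold changes of -0.19 to -0.12 and adjusted p-values of 0.080 to 0.16 (limma). With the GC correction the value was -0.03 (adjusted p = 0.61, limma). ZNF592, ZNF644, a partner of the methyltransferase G9a, and ZNF518A passed in neither direction, and ZNF644 was called only without DMSO 2 (0.17, adjusted p = 0.011, limma) and with the GC correction or scaling to the total.

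Among the transcription factors of widely expressed genes, ZNF384 rose by 0.27 (adjusted p = 0.0025, limma) and ZNF76 by 0.61 (adjusted p = 1.2e-05, limma). ZNF76 had 512, 476 and 451 in DMSO and 722, 722 and 754 with erlotinib, and its log2 fold change was 0.41 with the GC correction. Its close relative ZNF143, which binds many promoters, had a mean of 370 and was therefore no member. ZNF143 had 492, 496 and 498 in DMSO and 262, 235 and 235 with erlotinib, a log2 fold change of -1.02 (SE 0.12, adjusted p = 1.2e-07, limma), so the pair moved in opposite directions. ZNF281 had a log2 fold change of -0.22 (adjusted p = 0.014, limma) and its relative ZNF148 one of 0.01. The call of ZNF281 was lost with the GC correction (-0.06, adjusted p = 0.36), without DMSO 1 (-0.18, adjusted p = 0.062) and without the erlotinib library 4 (-0.18, adjusted p = 0.084).

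ZNF165, known as a cancer-testis antigen, fell from 818 ± 33.5 to 432 ± 29.3 (SD, n = 3 each; -0.92, adjusted p = 4.8e-08, limma). The other 3 genes of the list of epithelial and cancer-linked genes were below the minimum, ZNF503 with a mean of 116, ZNF703 with 22.6 and ZNF750 with 1.37. None of the 3 members listed as KRAB repressors of transposable elements was called. ZNF91, which binds SVA elements, had 732, 825 and 761 in DMSO and 833, 801 and 764 with erlotinib, groups that overlapped. ZNF10, with a mean of 157, is no member. ZNF268 and ZNF267 had log2 fold changes of -0.15 and -0.07, and ZNF268 was called without DMSO 3 (-0.25, adjusted p = 0.015, limma). With the GC correction ZNF91 and ZNF267 were both higher, by 0.29 and 0.25 (adjusted p = 0.0013 and 0.0035, limma). ZNF93, which binds LINE-1 elements and is no member with its mean of 247, fell by 1.03 (adjusted p = 2.0e-06, limma).

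The SCAN domain lets zinc finger proteins form dimers. A strict pattern of it was found in 8 members, of which ZNF202 (-0.50) and ZNF232 (-0.54) fell and ZNF397 (1.12), ZNF446 (1.09), ZNF213 (0.72), ZNF18 (0.67) and ZNF496 (0.61) rose (adjusted p at most 7.4e-04, limma). ZNF394 passed in neither direction. Of the 5 rises, 4 (ZNF397, ZNF446, ZNF213 and ZNF18) were of members with a DMSO mean under 400, which passed the minimum through their erlotinib libraries and had to rise, and ZNF202 passed through its DMSO libraries alone. Of the 3 members with both group means of at least 400, ZNF496 rose, ZNF232 fell and ZNF394 did neither, so nothing is read from the count beside the background of 30.6% higher and 47.4% lower. The GC correction moved ZNF213 to 0.27 and ZNF496 to 0.38. ZNF18 overlaps MAP2K4 (mean signal 403 against 1863) and ZNF397 overlaps ZSCAN30 (497 against 584), and the part of shared reads was not tested. The strict pattern missed some known SCAN genes: ZNF24, at 0.10, and ZNF263, at -0.13, were not called, and ZNF444, which sits in a cluster described below, rose from 931, 819 and 942 to 1724, 1519 and 1629 (log2 fold change 0.86). With the GC correction ZNF24 was called at 0.31 (adjusted p = 2.7e-05, limma), ZNF263 was called at -0.26, and ZNF444 was at 0.33. ZNF174, with a mean of 356, is no member.

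Members with and without a match to the KRAB pattern gave like counts, and the difference between them was not tested. The match was sought in the canonical transcript only, so the members without it may include KRAB genes. The KRAB A-box pattern was found in 114 members, of which 33 fell (28.9%) and 38 rose (33.3%), with a median log2 fold change of 0.04. Of the 123 members without it, 35 fell (28.5%) and 47 rose (38.2%), with a median of 0.06. A DMSO mean under 400 was found for 7 KRAB members and 15 of the others, and an erlotinib mean under 400 for 7 and 6. These passed the minimum through 1 group and had to differ, so the counts are a description. The share of rises lay near the 35.3% of all genes tested in both. Without DMSO 2, 33 KRAB members fell and 44 rose, and 29 of the others fell and 50 rose. The 96 members on chromosome 19 had 27 lower (28.1%) and 34 higher (35.4%), and the 141 elsewhere 41 lower (29.1%) and 51 higher (36.2%). Without DMSO 2 these were 25 and 39, and 37 and 55. The members held between 0 and 36 matches to the C2H2 finger, with a median of 10. Those with 3 to 5 fingers had 20 higher (51.3%) and 9 lower (23.1%) of 39, with 7 passing the minimum through their erlotinib libraries, and without DMSO 2 there were 19 and 6. In this bin the GC correction gave 22 higher and 7 lower, and scaling to the total 23 and 3. Those with 16 or more had 14 higher (36.8%) and 7 lower (18.4%) of 38, and 16 and 8 without DMSO 2. The bin of 0 to 2 fingers had more falls than rises, 9 and 6 of 20. With the deposited scaling those of 6 to 10 and 11 to 15 fingers were nearly even, with 23 lower and 24 higher of 79 and 20 lower and 21 higher of 61. Without DMSO 2 the falls and rises in these bins were 8 and 6, 21 and 32, and 19 and 21. They were 9 and 7, 20 and 33, and 21 and 20 with the GC correction, and 8 and 8, 16 and 41, and 13 and 27 with scaling to the total. Over all genes tested 35.3% were higher and 35.4% lower, and over genes with a mean of at least 400 30.6% and 47.4%. With the deposited scaling the share of rises among members with 16 or more fingers was thus near that of all genes tested. Without DMSO 2 it was 42.1%, against 35.8% of all genes tested and 31.9% of those at the minimum level. It was 47.4% with the GC correction (against 37.2% and 33.1%) and 60.5% with scaling to the total (against 43.3% and 39.5%). ZNF142, with the most fingers, fell by 0.45 on the log2 scale (adjusted p = 6.9e-05, limma; -0.68 with the GC correction) and overlaps BCS1L.

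Other C2H2 families were counted at the same minimum. Of 56 ZBTB, ZSCAN, ZKSCAN, ZFP, KLF and PRDM genes with a mean of at least 400, 11 fell (19.6%) and 33 rose (58.9%), with a median of 0.36, where 47.4% of all genes at that level fell and 30.6% rose. Without DMSO 2, 10 fell and 34 rose. Of the 56, 7 had a DMSO mean under 400 and 1 an erlotinib mean under 400. The BTB-domain genes of the ZBTB family had 16 higher (61.5%) and 4 lower (15.4%) of 26, and 16 and 3 without DMSO 2. Of these 26, 3 had a DMSO mean under 400 and 1 an erlotinib mean under 400. With the GC correction 29 of the 56 genes rose (51.8%) and 9 fell (16.1%), and 12 of the 26 ZBTB genes rose (46.2%) and 3 fell (11.5%). The shares over genes with a mean of at least 400 were then 33.1% higher and 49.3% lower. The difference between these families and the ZNF members was not tested.

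The genes that KRAB proteins work through moved in both directions. Of 28 genes of the TRIM28 silencing machinery, 26 were tested, 16 fell (61.5%, against 47.4% of genes with a mean of at least 400), 4 rose and 6 passed in neither direction. Without DMSO 2, 16 fell and 5 rose. With each library scaled to its total, 12 fell (46.2%, against 37.5% of genes with a mean of at least 400 at that scaling) and 7 rose. Without UHRF1, DNMT1, CHAF1A and CHAF1B, 12 of 22 fell (54.5%) and 4 rose. With scaling to the total 8 of these 22 fell (36.4%, against 37.5% of genes with a mean of at least 400) and 7 rose (31.8%, against 39.5%). The share of falls among them was thus near the background at that scaling. TRIM28 itself had 17273, 12469 and 16725 in DMSO and 11022, 11857 and 10316 with erlotinib. DMSO 2 was closest to the erlotinib libraries but did not overlap them (log2 fold change -0.47, SE 0.09, adjusted p = 1.2e-04, limma). The HP1 genes, whose proteins bind methylated histone H3, fell together: CBX5 by 1.30, CBX3 by 0.84 and CBX1 by 0.67 on the log2 scale (adjusted p at most 2.8e-08, limma). SETDB1, the methyltransferase that TRIM28 recruits, rose instead, from 777, 802 and 669 to 1314, 1267 and 1374 (0.82, SE 0.09, adjusted p = 6.7e-08, limma).

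The NuRD subunits divided. CHD3 rose by 0.84 and MTA1 by 0.39, while CHD4 (-0.29), MTA2 (-0.86), HDAC1 (-0.41), HDAC2 (-0.33) and RBBP7 (-0.69) fell (adjusted p at most 3.2e-04, limma). Of the HUSH complex and its partners, FAM208A (TASOR) and PPHLN1 fell by 0.34 and 0.52, and MPHOSPH8, MORC2 and ATF7IP passed in neither direction. The largest falls were those of genes that act at replicating DNA. UHRF1 fell by 3.48 and the maintenance methyltransferase gene DNMT1 fell by 1.78 on the log2 scale. The histone chaperone genes fell from 2194 ± 175 to 444 ± 27.6 (CHAF1A) and from 419.9 ± 31.0 to 75.7 ± 11.1 (CHAF1B) (SD, n = 3 each, adjusted p at most 1.9e-11, limma). The list holds these 4 genes of replication beside the repressors, and the part of cell proliferation in their fall was not tested. EHMT2 was listed at 0 in all 6 libraries and DAXX had a mean of at most 2.95 in either group.

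**Figure D3:**
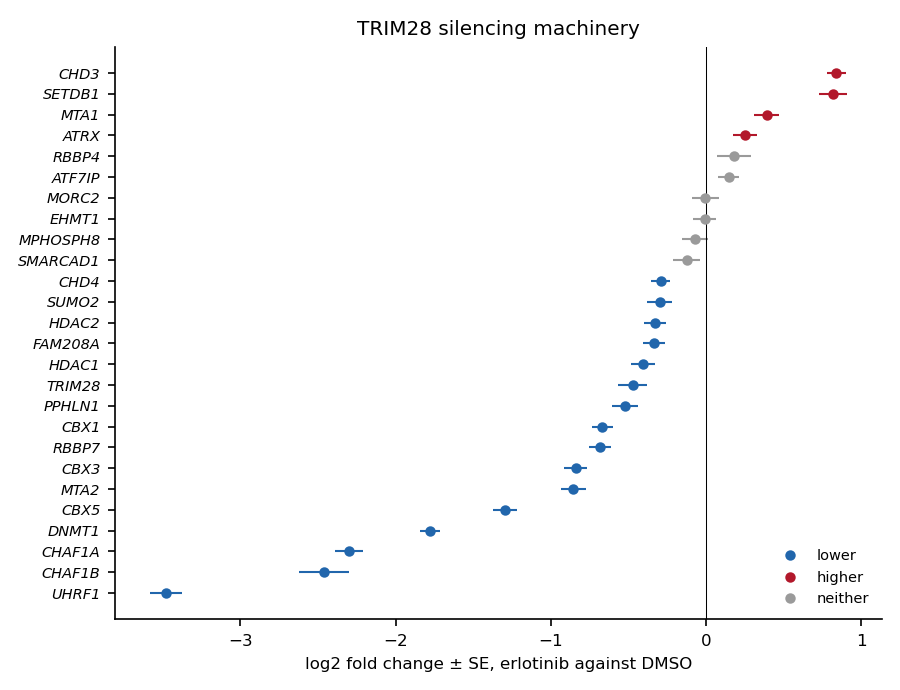
Log2 fold change of erlotinib against DMSO with its standard error (horizontal axis) for the 26 tested genes of the TRIM28 silencing machinery, sorted by value. Of these, 16 were lower, 4 higher and 6 neither, with UHRF1 at -3.48 and SETDB1 at 0.82.

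Neighbouring members often differed from one cluster to the next. With a gap of at most 500 kb between the starts of neighbours and at least 5 members, 10 clusters held 102 of the 237 members. The clusters were defined after values were seen, and they are given as a description. A cluster on chromosome 7 (chr7:64313961-65401136 of GRCh38) held 7 members, of which 6 fell and 1, ZNF117, rose, where 47.4% of genes with means of at least 400 were lower and 30.6% higher. ZNF273 passed the minimum through its DMSO libraries alone, and the other 5 falls were of members with both group means of at least 400. ZNF736 fell by 0.67, ZNF680 by 0.70, ZNF138 by 0.77 and ZNF92 by 0.54 on the log2 scale beside the falls of ZNF107 and ZNF273 given above. ZNF117 had 432, 457 and 404 in DMSO and 1157, 1179 and 1023 with erlotinib (1.37, SE 0.10, adjusted p = 7.1e-11, limma). It overlaps ERV3-1, an envelope gene of an endogenous retrovirus, which had 236, 228 and 247 in DMSO and 854, 859 and 901 with erlotinib (1.87, SE 0.11, adjusted p = 1.8e-12, limma). Reads shared between the 2 genes cannot be told apart.

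The genes of this cluster are close relatives. Identity between their coding sequences lay between 70.9% and 87.6% over the aligned bases, and no pair reached the 97% used to call a copy. The coding bases of 1 finger from ZNF107, ZNF273 and ZNF117 are shown because ZNF117 rose and its neighbours ZNF107 and ZNF273 fell, while their fingers are alike. Each lies in exon 4 of 4, and capitals mark the codons of the zinc-binding cysteines and histidines. ZNF107 is at chr7:64706704-64706781 (plus strand), ZNF273 at chr7:64928286-64928363 (plus strand) and ZNF117 at chr7:64978575-64978652 (minus strand) of GRCh38.

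ZNF107: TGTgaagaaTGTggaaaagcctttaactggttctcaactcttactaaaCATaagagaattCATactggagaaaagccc
ZNF273: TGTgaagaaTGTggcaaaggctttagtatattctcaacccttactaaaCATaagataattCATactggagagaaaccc
ZNF117: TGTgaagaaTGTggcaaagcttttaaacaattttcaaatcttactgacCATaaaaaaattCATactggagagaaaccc

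Of the 78 bases, ZNF107 and ZNF273 differed at 11, ZNF107 and ZNF117 at 14, and ZNF273 and ZNF117 at 13. Only 2 members had a transcript with a copy of at least 97% identity over at least 50% of its length, ZNF140 (ZNF891) and ZNF286A (ZNF286B), and their values are uncertain for that reason.

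A cluster on chromosome 19 (chr19:55476617-56624486) moved the other way, with 9 of 13 members higher and 1 lower, and a median log2 fold change of 0.86, where 30.6% of genes with a mean of at least 400 were higher. ZNF471, ZNF524, ZNF580 and ZNF784 had a DMSO mean under 400 and passed through their erlotinib libraries. Of the 9 members with both means of at least 400, 5 were higher and 1 lower. Its members ZNF524 (1.33), ZNF784 (1.24), ZNF579 (1.04) and ZNF581 (0.97) rose beside ZNF580 and ZNF471, with adjusted p-values of at most 1.3e-08 for these 4 (limma). ZNF524 had 434, 310.2 and 344 in DMSO and 974, 884 and 859 with erlotinib. ZNF787 was its 1 lower member (-0.39, adjusted p = 6.5e-04, limma). With the GC correction ZNF787 was at -0.98, ZNF628 was called lower at -0.51, ZNF865 lost its call (-0.02 in place of 0.65), and ZNF524 and ZNF579 were at 0.81 and 0.59. Of 13 other tested genes inside its bounds, 4 fell and 3 rose. NAT14, close to ZNF628, rose by 1.40, while the splicing factor gene U2AF2 fell by 0.50 and ISOC2, just outside, by 0.70 (adjusted p at most 2.2e-06, limma).

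The median GC content was 66.0% in this cluster and 34.6% in the cluster on chromosome 7. With the GC correction 8 of its 13 members were higher and 2 lower, with a median of 0.46, and on chromosome 7 the 6 falls and the rise were still called, with a median of -0.43 in place of -0.70 and ZNF680, ZNF138 and ZNF92 at -0.32, -0.43 and -0.18. Without DMSO 2, the counts were 9 higher and 1 lower, and 1 higher and 6 lower. The cluster of 19 members at chr19:52013324-53496255 had 8 lower (42.1%, near the 47.4% of genes with means of at least 400) and 2 higher. After the GC correction it had 5 lower and 4 higher, with scaling to the total 5 and 5, and 8 lower and 3 higher without DMSO 2. One of its falls, that of ZNF614, was of a member that passed the minimum through DMSO alone. The largest, with 27 members at chr19:57191500-58489533, was mixed, with 9 lower (33.3%) and 10 higher (37.0%), and 7 and 11 without DMSO 2, where 47.4% and 30.6% of genes at that level were lower and higher. It had 7 lower and 10 higher after the GC correction, and 5 and 13 with scaling to the total. ZNF446, ZNF552, ZNF256 and ZNF530 passed the minimum through 1 group alone, and the other 23 members had 7 lower and 8 higher. Of the 8 members at chr7:149069641-149867479, 4 rose and none fell, also without DMSO 2, against the same background of 30.6% and 47.4%, while the GC correction left 3 higher and 3 lower. ZNF862 passed through its erlotinib libraries, and of the other 7 members 3 rose.

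**Figure D4:**
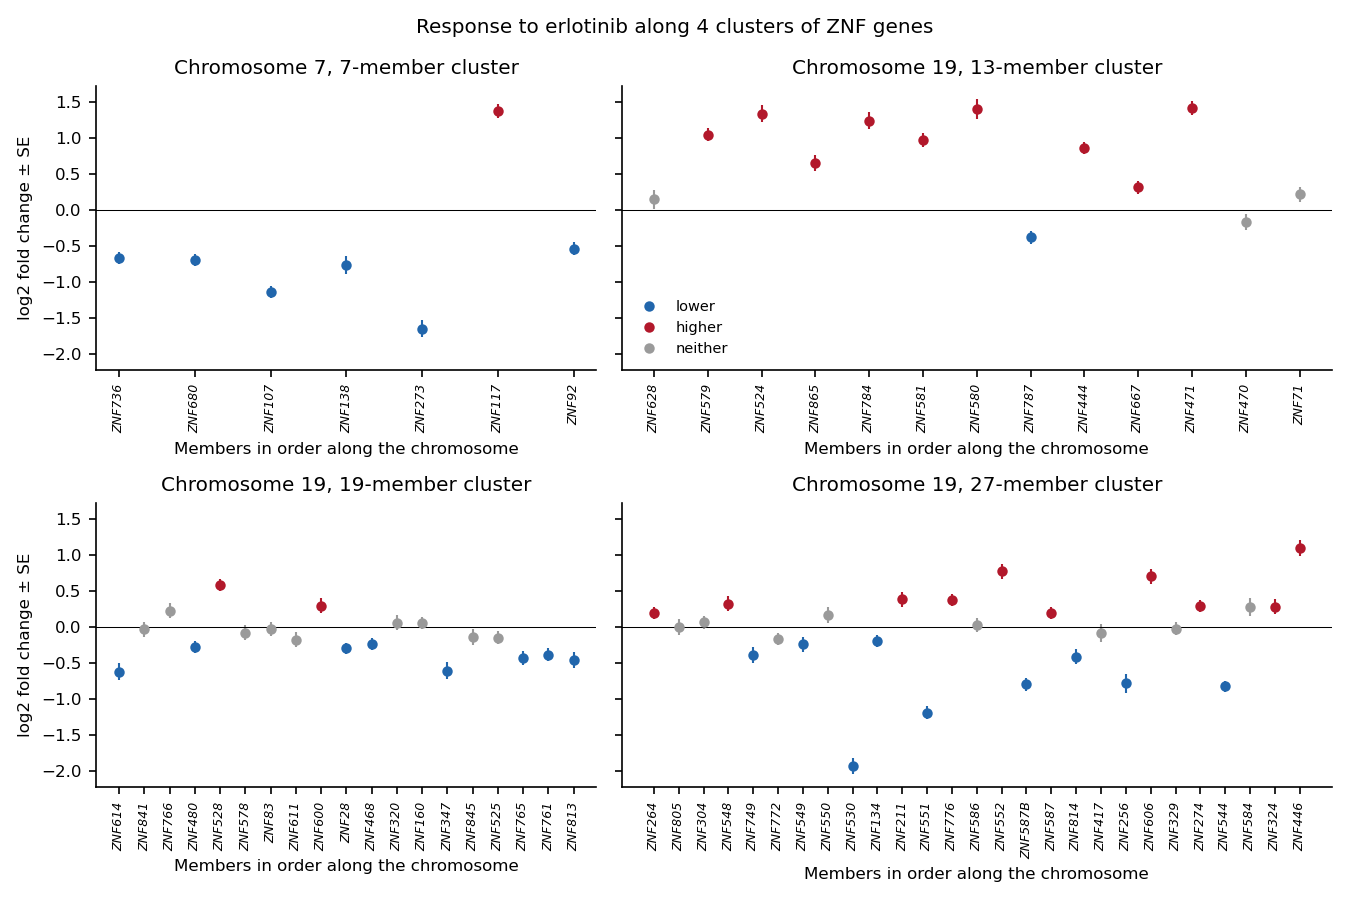
Log2 fold change of erlotinib against DMSO with its standard error (vertical axis) for the members of 4 clusters, in their order along the chromosome (horizontal axis, not to scale). In the 7-member cluster on chromosome 7 all but ZNF117 are lower, in the 13-member cluster on chromosome 19 all called members but ZNF787 are higher, and the larger clusters hold both directions.

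Members that share a number and differ by a letter did not always move alike. There were 7 such numbers with 14 members. ZNF33A and ZNF33B both rose, by 0.48 and 1.17 (adjusted p at most 1.0e-05, limma), and ZNF385A rose by 0.61 (0.28 with the GC correction) beside ZNF385C. ZNF587B fell by 0.80 (adjusted p = 9.4e-08, limma), and its neighbour ZNF587 rose by 0.19 (adjusted p = 0.041, limma), the only number of the 7 with calls in opposite directions. ZNF75D rose by 0.62 (adjusted p = 2.7e-06, limma) and ZNF75A was at -0.12 with no call.

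The change moved with GC content across the members. Of the 60 members with a GC content under 40%, 30 fell and 14 rose (23.3%), with a median of -0.21. Of the genes in that bin with means of at least 400, 54.7% fell and 20.7% rose, so the members lay near the background. Of the 32 members at 60% or more, 3 fell (9.38%) and 19 rose (59.4%), with a median of 0.52, against 29.7% and 47.8% of genes with a mean of at least 400. The difference was not tested. These rises include ZNF213, ZNF219, ZNF428, ZNF446, ZNF524, ZNF580 and ZNF784, which had a DMSO mean under 400. They passed the minimum through their erlotinib libraries and had to differ. In the lowest bin ZNF737 passed likewise, and ZNF121, ZNF141, ZNF273, ZNF486, ZNF614 and ZNF681 passed through their DMSO libraries alone. The counts of the bins and the correlation are therefore a description. Spearman's rho of the log2 fold change with GC content was 0.36 over the 237 members, and 0.19 over 8192 genes with a mean of at least 400. Genes are not independent replicates, and all points share the same 6 libraries. Over genes with a mean of at least 400, the median was -0.28 under 40% and 0.16 at 60% or more. After a correction within each library for the GC content and length of transcripts, 23 members fell (38.3%) and 22 rose (36.7%) in the lowest bin, against 42.8% and 37.5% of genes with means of at least 400. In the highest bin 11 fell (34.4%) and 14 rose (43.8%), against 52.4% and 31.4%. These rises include the genes of this bin named above that had to differ. ZNF668, with an erlotinib mean under 400, is among the falls, so no contrast with the background is read from these counts. Over the members rho was then 0.03. Without DMSO 2, the library with the deviating GC profile, the counts were 28 lower and 15 higher in the lowest bin and 4 lower and 18 higher in the highest. Over all members the corrected counts were 67 lower (28.3%) and 100 higher (42.2%), against 36.9% and 37.2% of the 13890 tested genes with a value, and 49.3% and 33.1% of those with means of at least 400. Of the 153 called members, 50 became smaller by over 1.5 times or changed sign, 11 larger by over 1.5 times and 23 were no longer called, while 37 others gained a call. No member changed from one called direction to the other.

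**Figure D5:**
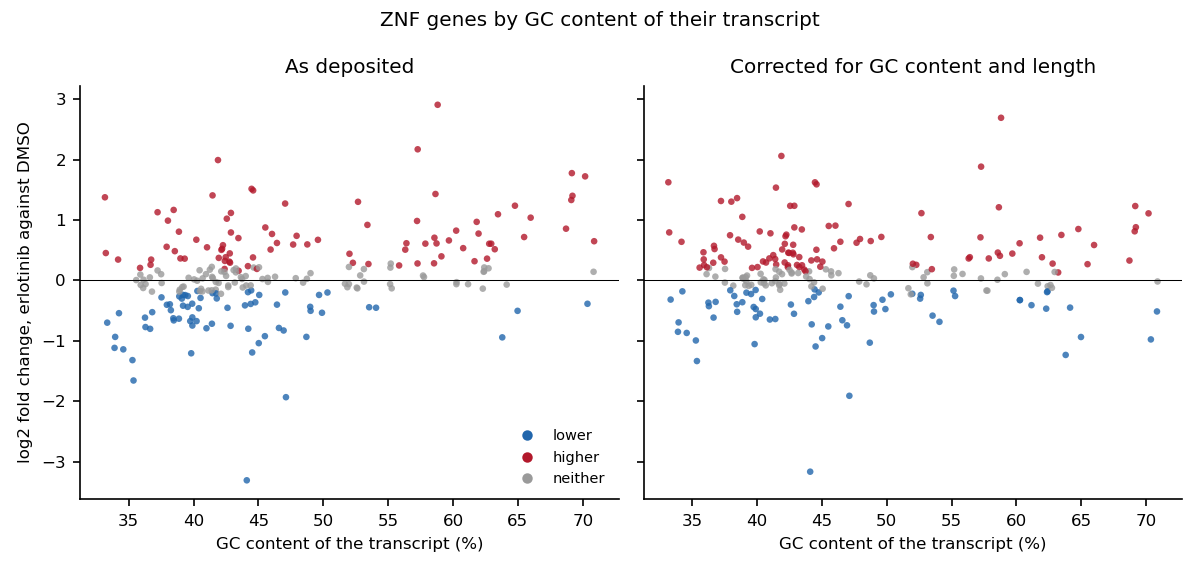
Log2 fold change of each of the 237 members (vertical axis) against the GC content of its transcript in percent (horizontal axis), from the deposited signal (left) and after the GC correction (right). On the left the members at 60% or more are 19 higher and 3 lower, and on the right 14 higher and 11 lower. In both panels the higher ones include members with a DMSO mean under 400, which passed the minimum through their erlotinib libraries and had to differ.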

How the data were processed

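RNA-seq libraries of HCC827 cells (3 DMSO, 3 erlotinib) were used as the authors deposited them. The authors mapped reads to GRCh38 with Bowtie2 2.3.4 and counted them per gene with featureCounts 1.6.3. The submitters' notes also name DESeq2 1.18.1. The deposited signal values are reads divided by 1 size factor per library (0.882 to 1.08). Dividing by each library's step gave whole reads for 100% of values within 0.01. For the erlotinib library 5 the step is near 1, so that wholeness says less there. Strand was not stated. No columns of samples were left over (0), and 475 genes lack a symbol.

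limma 3.58.1 (trend) was run in R 4.3.3 on log2(signal + 1), with 14215 genes at a mean signal of at least 10, two-sided tests and Benjamini-Hochberg adjustment. edgeR 4.0.16 and DESeq2 1.42.0 were run on recovered reads as alternatives. Scripts were tested on simulated data. Members and gene lists were chosen with earlier results of these data known. Named members are the 10 largest rises and falls called without overlap, the 5 highest means, the 5 smallest changes, those beside the minimum of 400, and role lists. Clusters, GC bins, finger bins, motifs, printed sequences, neighbouring genes, other SCAN pattern genes, the machinery list without replication genes, the counts of lists without DMSO 2 by fingers and chromosome, and pairs sharing a number were chosen after values were seen, with 1 definition each. Positions came from RefSeq. KRAB, SCAN and finger matches to fixed amino acid patterns, GC content and length came from the coding and transcript sequences of the canonical transcripts of GENCODE 44, in place of the RefSeq proteins planned. All 237 members had a position and a transcript, and 207 a promoter. Copies were found with minimap2 2.31-r1302.

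Libraries of 1 condition differed beyond sampling noise (chi-square over its degrees of freedom 4.13 to 24.3). Pearson's r between them, across genes and so not over independent points, was 0.983 to 0.9903. Bowtie2 aligns without gaps at introns, so reads over distant junctions can be lost, and of the members 48 overlap another tested gene.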

Additional observations from a re-analysis of the deposited data

How the results depend on the processing

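The 16 alternatives of the fit moved the counts of members within 46 to 71 lower and 73 to 122 higher, and no member changed from one called direction to the other. The lowest count of falls and the highest count of rises (46 and 122) came from scaling to the total, which also gave 23 falls for members without the KRAB pattern, 12 falls and 7 rises for the silencing machinery and 6 falls for the other C2H2 families. An adjusted p under 0.01 left 54 and 73, edgeR gave 63 and 88 and DESeq2 62 and 84, and the GC correction 67 and 100. With a minimum mean of 800 there were 116 members, 39 lower and 40 higher. Leaving out each library gave 59 to 71 lower and 75 to 94 higher. Called named members that lost their call under an alternative were 4, ZNF217, ZNF518B, ZNF281 and ZNF687.

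Members near 0 changed sign. With scaling to the total, ZNF805 was 0.17, ZNF622 0.16, ZNF429 0.12, ZNF830 0.069, ZNF346 0.12, ZNF592 0.12, ZNF518B 0.0049, ZNF268 0.027, ZNF267 0.10 and ZNF263 0.049. With the GC and length correction, ZNF805 was 0.11, ZNF429 0.20, ZNF830 0.11 and ZNF267 0.25, the only reversed value past the threshold (adjusted p = 0.0035, limma). ZNF805 was 0.011 with TMM factors in limma and 0.0074 in edgeR. The cause was not tested. Leaving out each library, ZNF664 lay between -0.031 and 0.086, ZNF805 between -0.081 and 0.066, ZNF148 between -0.040 and 0.077, ZNF518A between -0.075 and 0.10, ZNF655 between -0.030 and 0.083, ZNF622 between -0.052 and 0.027, ZNF429 between -0.19 and 0.027 and ZNF638 between -0.00025 and 0.11. The GC correction added calls for 10 named members beside ZNF267, 2 of them lower, ZNF592 (-0.22) and ZNF263 (-0.26).

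No paired analysis was possible because the erlotinib columns carry the numbers 4 to 6, which match no sample title. The correction for GC content and length covered 97.7% of the tested genes. The precision rests on 3 libraries per group, and the share of counting error in their spread at a mean of 400 was not computed.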
